A study of Mus musculus with 8 samples.

Results

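The genes described here are 10 mouse genes whose products are secreted into milk or coat its fat globules: the caseins Csn1s1, Csn1s2a, Csn2 and Csn3, the whey proteins Wap, Lalba, Wfdc18 and Trf, and the fat globule proteins Btn1a1 and Glycam1. They were chosen by symbol and matched by Entrez identifier, and all 10 were found among the 27164 genes of the count tables. RNA was sequenced single-end from basal cells, the outer contractile layer of the mammary epithelium, sorted by FACS without treatment from 10-week-old C57BL/6 females. Every animal carried the Lgr5-GFP-IRES-CreERT2 allele, in which GFP and a Cre recombinase are inserted at Lgr5, a receptor for R-spondins. The cells were sorted by Lgr5 and by the tetraspanin Tspan8 (T8) into 4 populations with 2 libraries each, 1 from batch 1 and 1 from batch 2. These were Lgr5+T8hi cells, Lgr5-T8hi cells, Lgr5+T8- cells and, lacking both markers, Lgr5-T8- cells. Whether separate animals gave the 8 libraries is not stated in the labels, and p-values therefore cover the spread among libraries, which may be technical.

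Milk proteins are made in quantity by the luminal alveolar cells of pregnancy and lactation. Prolactin binds its receptor on these cells and acts through the kinase JAK2 and the factor STAT5, which binds the casein promoters, while the factor ELF5 drives the alveolar lineage. Caseins form micelles that carry calcium, whey proteins stay soluble, and fat leaves the cell as droplets wrapped in plasma membrane. The glands studied here came from young females, and the labels mention no pregnancy or lactation.

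The 10 genes lie on 5 chromosomes (RefSeq annotation of GRCm38.p6). The 4 caseins share 1 cluster on chromosome 5, with Csn1s1 at 87666208 to 87682578, Csn2 at 87692619 to 87699429, Csn1s2a at 87774450 to 87788798 and Csn3 at 87925579 to 87932550. Wap (6635483 to 6638654) and Wfdc18 (83709004 to 83711360) lie far apart on chromosome 11. Lalba (98480400 to 98482934) and Glycam1 (103562759 to 103565081) lie on chromosome 15, Btn1a1 on chromosome 13 (23456984 to 23465914) and Trf on chromosome 9 (103208876 to 103230286). Reads were counted per gene, and the sources used here do not say whether counting used the strand. Csn3 overlaps the antisense gene 1700066N21Rik, which had 0 counts, and Trf overlaps the annotated gene Gm20425 on its own strand, so reads of that pair may be split.

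Promoters, taken as 250 bases before to 50 after a transcript start, were available in the RefSeq table for 7 of the 10 genes. The 3 without one were Csn3, Btn1a1 and Trf. The core of the STAT5 site, TTCNNNGAA, reads the same on both strands. It was present in 4 of the 7 promoters, against 8.30% of 32851 promoters of the same length. It began 100 bases before the start in Csn1s1, 93 bases before it in Csn2, 145 bases before it in Glycam1, and in Csn1s2a it lay after the start. A C/EBP pattern, TTGCNNAA on either strand, was found in 0 of the 7 and in 10.8% of all promoters. A match to a pattern is a description of the sequence and not evidence of binding, and no match says only that these letters are not in this window. Shown here are 3 promoters with the STAT5 pattern, in capitals, followed by those of Wfdc18 and Lalba, which lack it. Transcripts of Wfdc18 and Lalba were more abundant in T8hi cells. The promoter of Wap, which had 1 count in all, also lacks the pattern and is not shown. The sequences run 5′ to 3′ on the strand of the gene, on GRCm38.p6, and the Lalba window is set on a transcript start inside the span of the gene.
Csn1s1, chr5:87665958-87666257, plus strand: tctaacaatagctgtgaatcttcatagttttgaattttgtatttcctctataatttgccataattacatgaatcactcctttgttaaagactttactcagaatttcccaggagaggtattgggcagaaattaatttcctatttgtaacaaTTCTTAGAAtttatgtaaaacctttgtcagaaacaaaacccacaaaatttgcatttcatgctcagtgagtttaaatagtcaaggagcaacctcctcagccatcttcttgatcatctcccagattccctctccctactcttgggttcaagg
Csn2, chr5:87699376-87699675, minus strand: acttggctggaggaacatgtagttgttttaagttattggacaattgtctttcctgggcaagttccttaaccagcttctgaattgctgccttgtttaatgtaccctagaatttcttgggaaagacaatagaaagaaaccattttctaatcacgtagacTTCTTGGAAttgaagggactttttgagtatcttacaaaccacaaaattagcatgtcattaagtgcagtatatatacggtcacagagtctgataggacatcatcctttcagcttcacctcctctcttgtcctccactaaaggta
Glycam1, chr15:103565032-103565331, minus strand: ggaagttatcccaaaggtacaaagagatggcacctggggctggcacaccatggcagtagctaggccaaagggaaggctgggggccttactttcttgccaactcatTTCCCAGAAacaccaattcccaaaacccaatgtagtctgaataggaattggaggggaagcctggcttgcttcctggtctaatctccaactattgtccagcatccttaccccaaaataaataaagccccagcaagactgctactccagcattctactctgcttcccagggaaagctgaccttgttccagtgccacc
Wfdc18, chr11:83708754-83709053, plus strand: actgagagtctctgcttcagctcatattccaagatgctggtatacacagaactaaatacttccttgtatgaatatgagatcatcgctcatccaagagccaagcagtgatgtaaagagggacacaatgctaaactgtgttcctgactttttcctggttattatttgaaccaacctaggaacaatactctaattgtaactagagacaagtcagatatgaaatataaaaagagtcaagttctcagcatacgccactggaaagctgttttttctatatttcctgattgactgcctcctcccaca
Lalba, chr15:98482634-98482933, minus strand: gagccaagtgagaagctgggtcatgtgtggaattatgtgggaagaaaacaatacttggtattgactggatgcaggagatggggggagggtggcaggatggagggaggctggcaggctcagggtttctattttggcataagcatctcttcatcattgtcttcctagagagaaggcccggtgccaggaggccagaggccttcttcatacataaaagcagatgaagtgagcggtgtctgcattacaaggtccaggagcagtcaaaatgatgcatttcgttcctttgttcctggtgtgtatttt

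Libraries held 24571300 to 38384875 counts. Values are CPM, that is counts scaled to a common library total after TMM adjustment, and a floor of 3 counts corresponded to 0.0799 to 0.120 CPM, which covers counting error only. The sort was visible in the RNA: Tspan8 had 150.2 to 289 CPM in T8hi libraries and 3.16 to 10.6 CPM in T8- libraries. Lgr5 had 174 to 212 CPM in Lgr5+ libraries. In Lgr5- libraries of batches 1 and 2 it had 119 and 129 CPM in T8hi and 58.3 and 50.5 CPM in T8- cells. Tspan8 was also 2.00-fold higher in Lgr5+ than in Lgr5- cells (edgeR adjusted p = 5.16e-05). The basal identity given in the labels was checked against 12 basal markers, whose summed level was 19252 to 22845 CPM in T8hi libraries and 25478 to 29290 CPM in T8- libraries. Acta2, smooth muscle actin, averaged 4950 CPM and Krt14, a basal keratin, 4716 CPM over the 8 libraries, while the luminal keratin Krt8 averaged 614 CPM.

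Across these basal cells the milk genes spanned over 4 orders of magnitude, and the set was mostly carried by Trf. The lower end of that span was Wap, with 1 count over the 8 libraries, under the floor of 3 counts. Per kilobase of gene length, mean levels over the 8 libraries were 199 CPM per kb for Trf, 34.7 for Wfdc18, 33.0 for Glycam1 and 20.0 for Csn3. They were 1.52 CPM per kb for Lalba and 1.46 for Btn1a1, and 0.164 for Csn1s1, 0.0868 for Csn2, 0.0214 for Csn1s2a and 0.00700 for Wap. Neighbours in this order were not all separated: population means ran from 8.47 to 69.4 CPM per kb for Wfdc18, from 23.6 to 46.5 for Glycam1 and from 4.93 to 42.6 for Csn3, and those of Lalba (0.314 to 4.20) contained those of Btn1a1 (0.534 to 2.76). Trf stood above all others, with population means of 137 to 295 CPM per kb, and ranked 347 of 27164 genes on this scale.

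**Figure D1:**
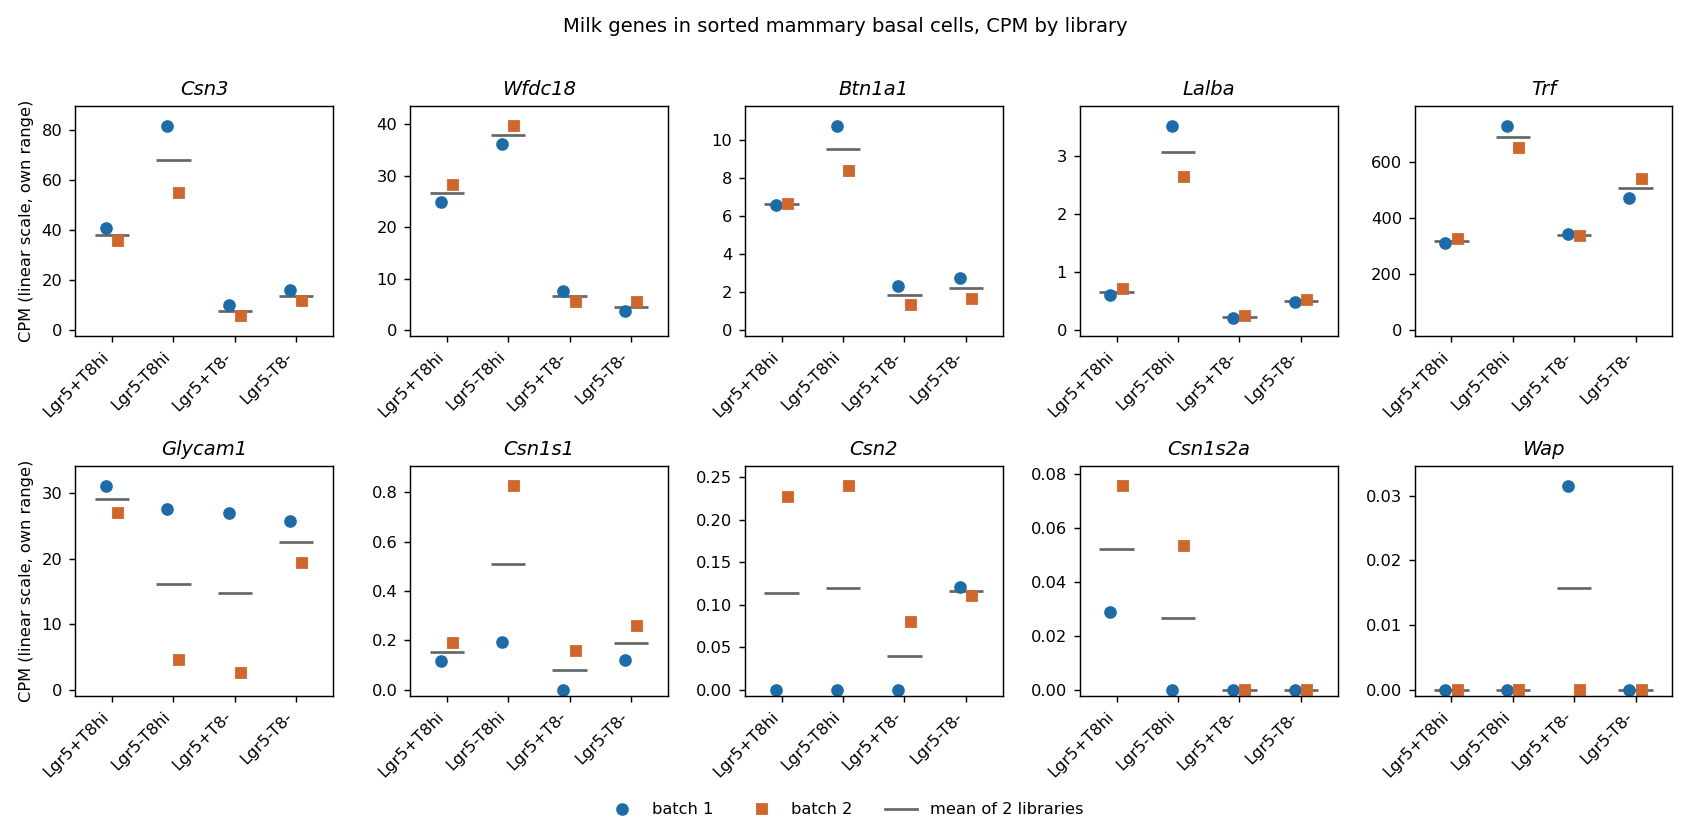
CPM of each of the 10 milk genes (linear y axis, a separate range in each panel) in the 4 sorted populations on the x axis. Circles are batch 1, squares are batch 2 and bars are the mean of 2 libraries. Csn3, Wfdc18, Btn1a1 and Lalba sit higher in every T8hi library than in any T8- library. Trf follows Lgr5 status, and 2 batch 2 libraries of Glycam1 lie below 5 CPM.

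Nearly all casein reads in these libraries were of Csn3. Csn3 encodes kappa-casein, which coats casein micelles and keeps them in suspension. It had 40.8 and 35.6 CPM in Lgr5+T8hi, 81.3 and 54.7 CPM in Lgr5-T8hi, 10.2 and 5.54 CPM in Lgr5+T8-, and 15.9 and 11.5 CPM in Lgr5-T8- libraries of batches 1 and 2. Every T8hi library was above every T8- library, and within each Tspan8 class and batch the Lgr5+ library was below the Lgr5- library. Over the 8 libraries Csn3 took 8673 of the 8778 counts of the 4 caseins and Csn1s2b, another casein gene of the same cluster. That was 98.8% (exact 95% interval 98.6 to 99.0, counting error only), and the Csn3 share ran from 95.2% to 99.8% by library.

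The calcium-binding caseins were close to the counting limit. Csn1s1, alpha-s1-casein, had 4 and 5 counts in Lgr5+T8hi, 7 and 31 in Lgr5-T8hi, 0 and 4 in Lgr5+T8-, and 4 and 7 in Lgr5-T8- libraries. Csn2, beta-casein, a major casein of mouse milk, had 24 counts in all, and in batch 1 it was at 0 in every population but Lgr5-T8-, which had 4. Csn1s2a, another calcium-binding casein, had 5 counts in all, all of them in T8hi libraries (1 and 2 in Lgr5+T8hi, 0 and 2 in Lgr5-T8hi). Only Csn1s1 in the batch 2 Lgr5-T8hi library reached the level of 0.292 CPM that the filter on low counts required in 2 libraries, so none of these 3 genes was tested. At this depth no difference between populations was detectable for them beyond those single values.

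The genes around the caseins were almost without reads. Of 25 genes of the tables lying within 500 kb of a casein on chromosome 5, Csn3 was the only one that passed the filter. Of the 21 that are not among the 10 milk genes, 14 had 0 counts and the other 7 had at most 14 counts each over the 8 libraries. That highest neighbour was Csn1s2b, a further casein gene of the cluster.

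**Figure D2:**
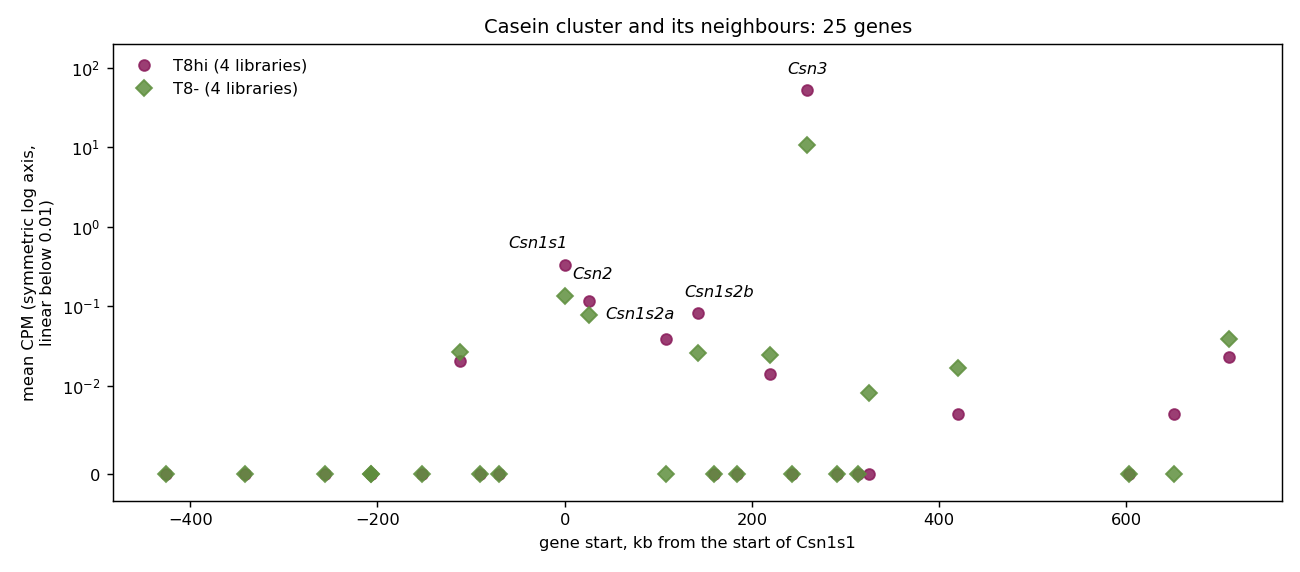
Mean CPM (symmetric log axis, linear below 0.01) of the 25 genes within 500 kb of a casein against the distance of each gene start from that of Csn1s1 in kb; circles are the mean of the 4 T8hi libraries and diamonds that of the 4 T8- libraries. Csn3 stands alone above 1 CPM in both, and the calcium-binding caseins are below 1 CPM.

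The whey genes differed among themselves. Wap, whey acidic protein, had 1 count in all, in the batch 1 Lgr5+T8- library. Wfdc18 encodes a small secreted protein with the same 4-disulfide core as whey acidic protein, and it was 1 of the more abundant of the 10 genes. It had 24.9 and 28.2 CPM in Lgr5+T8hi, 36.0 and 39.5 CPM in Lgr5-T8hi, 7.59 and 5.54 CPM in Lgr5+T8-, and 3.70 and 5.51 CPM in Lgr5-T8- libraries. T8hi and T8- libraries did not overlap, whereas among T8- libraries the lower Lgr5+ value, 5.54 CPM, nearly met the higher Lgr5- value, 5.51 CPM.

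Lalba encodes alpha-lactalbumin, which joins the galactosyltransferase B4GALT1 to form lactose synthase. Its counts were low: 21 and 19 in Lgr5+T8hi, 128 and 99 in Lgr5-T8hi, 7 and 6 in Lgr5+T8-, and 16 and 14 in Lgr5-T8- libraries. These gave 0.605 and 0.718 CPM in Lgr5+T8hi, 3.51 and 2.64 CPM in Lgr5-T8hi, 0.220 and 0.239 CPM in Lgr5+T8-, and 0.485 and 0.515 CPM in Lgr5-T8- libraries. The Lgr5-T8hi libraries were the highest and the Lgr5+T8- libraries the lowest in both batches. T8hi and T8- libraries did not overlap, the closest values being 0.605 and 0.515 CPM.

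Trf encodes transferrin, an iron carrier that mouse mammary cells secrete into milk and that several other cell types also make. It had 312 and 326 CPM in Lgr5+T8hi, 726 and 648 CPM in Lgr5-T8hi, 343 and 336 CPM in Lgr5+T8-, and 472 and 541 CPM in Lgr5-T8- libraries. All Lgr5- libraries were above all Lgr5+ libraries, and the T8hi and T8- ranges overlapped.

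Of the fat globule genes, Btn1a1 encodes butyrophilin, a membrane protein needed for the release of milk fat droplets. It had 6.57 and 6.66 CPM in Lgr5+T8hi, 10.7 and 8.36 CPM in Lgr5-T8hi, 2.33 and 1.36 CPM in Lgr5+T8-, and 2.76 and 1.65 CPM in Lgr5-T8- libraries, so that T8hi and T8- did not overlap. Glycam1 encodes a mucin-like glycoprotein of the fat globule fraction that is also made by high endothelial venules as a ligand of L-selectin. Its values were 31.1 and 27.0 CPM in Lgr5+T8hi, 27.7 and 4.53 CPM in Lgr5-T8hi, 27.0 and 2.55 CPM in Lgr5+T8-, and 25.7 and 19.4 CPM in Lgr5-T8- libraries. All 4 batch 1 libraries lay between 25.7 and 31.1 CPM, and the 4 of batch 2 were spread from 2.55 to 27.0 CPM, so that the populations overlapped.

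The Tspan8 comparison asked how T8hi cells differed from T8- cells, averaged over Lgr5 status and with batch as a block. Csn3, Wfdc18, Btn1a1 and Lalba were higher in T8hi cells. Csn3 was 4.94-fold higher (log2 fold change 2.31 ± 0.10, SE; edgeR adjusted p = 2.35e-07). Wfdc18 differed by 2.52 ± 0.13 on the log2 scale (edgeR adjusted p = 2.82e-06), Btn1a1 by 1.99 ± 0.16 (7.75e-06) and Lalba by 2.06 ± 0.27 (0.000311). These differences kept their call and stayed between 1.86 and 2.75 in every refit with 1 library left out.

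Trf and Glycam1 did not pass the test. Trf differed by 0.18 ± 0.07 (edgeR adjusted p = 0.146), although without the batch 2 Lgr5-T8- library the value was 0.24 and the adjusted p 0.0215. For Glycam1 the value was 0.28 ± 0.68 (edgeR adjusted p = 0.843). In all, 4 of the 6 tested milk genes were called higher and 0 lower, against 9.13% and 5.52% of the 16526 genes tested, and the other 4 milk genes were left out by the filter. In bulk libraries, more cells that contain a transcript and more of it in each cell cannot be told apart.

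**Figure D3:**
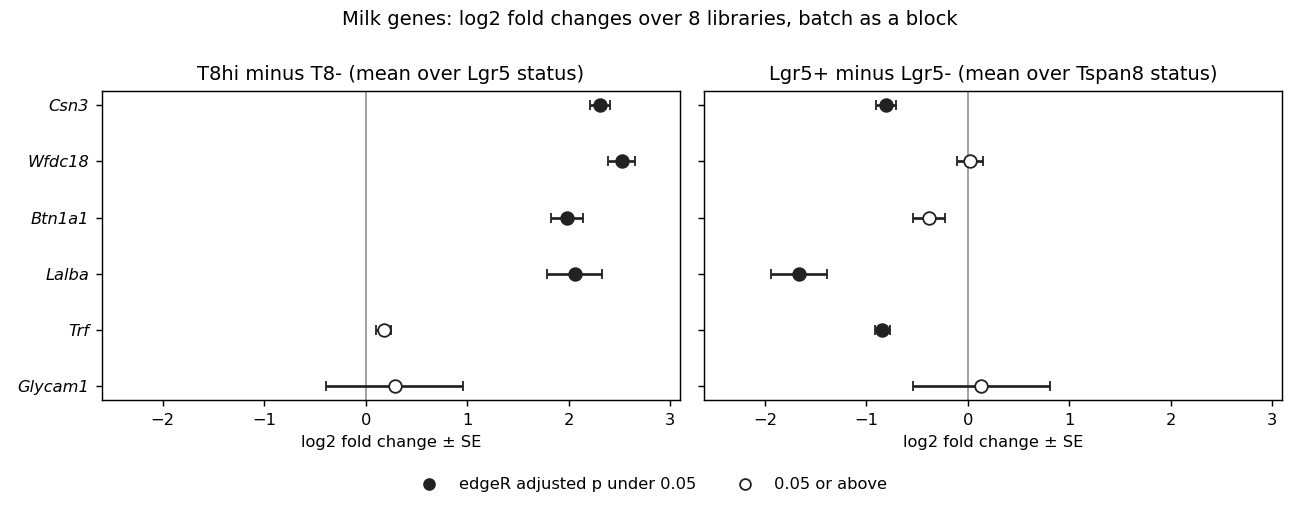
Log2 fold change with its standard error (x axis) of the 6 tested milk genes for T8hi minus T8- (left) and Lgr5+ minus Lgr5- (right), fitted over 8 libraries with batch as a block. Filled points have an edgeR adjusted p under 0.05: Csn3, Wfdc18, Btn1a1 and Lalba lie near 2 to 2.5 on the left, and Csn3, Lalba and Trf lie below 0 on the right.

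The Lgr5 comparison asked the same of Lgr5+ against Lgr5- cells, averaged over Tspan8 status. Lalba, Trf and Csn3 were lower in Lgr5+ cells. Lalba fell by 1.66 ± 0.28 on the log2 scale (edgeR adjusted p = 0.00234), Trf by 0.84 ± 0.08 (3.23e-05) and Csn3 by 0.81 ± 0.10 (0.000329). The Csn3 call was lost without the batch block (log2 fold change -0.81, edgeR adjusted p = 0.158). Wfdc18 (0.02 ± 0.13, edgeR adjusted p = 0.956), Btn1a1 (-0.38 ± 0.16, 0.169) and Glycam1 (0.13 ± 0.68, 0.940) did not pass the test. So 3 of the 6 tested milk genes were called lower and 0 higher, against 4.86% and 4.23% of all genes tested.

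The interaction asked whether the T8hi to T8- difference itself differed between Lgr5+ and Lgr5- cells. None of the 6 passed edgeR's test, against 2.55% of all genes, while 2 had an unadjusted p under 0.05. These were Wfdc18, with a T8hi to T8- difference smaller by 1.05 ± 0.26 on the log2 scale in Lgr5+ cells (edgeR adjusted p = 0.0803), and Trf, with one smaller by 0.53 ± 0.15 (0.106). DESeq2 called both (adjusted p = 0.0178 for Wfdc18 and 0.0496 for Trf), limma-voom called Wfdc18 (adjusted p = 0.0466), and both also passed in edgeR without the batch 2 Lgr5-T8- library (adjusted p = 0.0157 for Wfdc18 and 0.0142 for Trf). Without the batch 2 Lgr5+T8- library, Wfdc18 alone passed (-1.38, adjusted p = 0.0158). The interaction estimates were 0.00 ± 0.18 for Csn3, -1.10 ± 0.59 for Lalba and -0.26 ± 0.31 for Btn1a1 (edgeR adjusted p = 0.997, 0.537 and 0.846). For Glycam1 the estimate was 2.30 ± 1.43 (adjusted p = 0.694).

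Within each Lgr5 class, Csn3, Wfdc18 and Btn1a1 were again higher in T8hi cells. In Lgr5+ cells, T8hi exceeded T8- by 2.31 ± 0.14 for Csn3, 1.99 ± 0.18 for Wfdc18 and 1.85 ± 0.23 for Btn1a1 on the log2 scale (edgeR adjusted p = 1.00e-05, 0.000136 and 0.000282). Lalba, at 1.51 ± 0.44, had an adjusted p of 0.0534 there, and it passed without either Lgr5-T8- library (0.0405 without that of batch 1 and 0.0436 without that of batch 2). These 3 calls stand against 7.27% of all genes. In Lgr5- cells, T8hi exceeded T8- by 2.30 ± 0.14 for Csn3, 2.61 ± 0.32 for Lalba, 3.05 ± 0.19 for Wfdc18, 2.12 ± 0.21 for Btn1a1 and 0.44 ± 0.11 for Trf (edgeR adjusted p = 3.67e-06, 0.000338, 1.87e-05, 0.000106 and 0.0245). These 5 calls stand against 3.70% of all genes, and that of Trf was lost without the batch 1 Lgr5-T8hi (0.34, adjusted p = 0.418), batch 2 Lgr5-T8hi (0.56, 0.0685) or batch 1 Lgr5-T8- library (0.33, 0.0794) and without the batch block (0.395).

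Within T8hi cells, Lgr5+ was below Lgr5- for Lalba (-2.22 ± 0.30, edgeR adjusted p = 0.00331), Trf (-1.11 ± 0.11, 0.000732) and Csn3 (-0.81 ± 0.13, 0.00756), 3 calls against 1.05% of all genes called lower. The calls of Csn3 and Lalba were lost without the batch 1 Lgr5+T8hi library (-0.58, edgeR adjusted p = 0.167, and -1.96, 0.110) and without the batch 1 Lgr5-T8hi library (-0.76, 0.0978, and -1.92, 0.0912). That of Lalba was also lost without the batch 2 Lgr5+T8hi library (-2.43, 0.0527). Conversely, Wfdc18 (-0.51 ± 0.16, adjusted p = 0.160) passed without the batch 1 Lgr5+T8- (-0.50, 0.0367), batch 2 Lgr5+T8- (-0.51, 0.0344) or batch 2 Lgr5-T8- library (-0.51, 0.0390). Within T8- cells, Csn3 (-0.81 ± 0.15, edgeR adjusted p = 0.00524) and Trf (-0.58 ± 0.11, 0.00474) were lower in Lgr5+, 2 calls against 5.05% of all genes. The Csn3 call was lost without the batch 1 Lgr5-T8- library (-0.82, adjusted p = 0.0536) and the Trf call without the batch 2 Lgr5+T8- library (-0.54, 0.0555). Wfdc18 (0.55 ± 0.21, adjusted p = 0.150) passed there without the batch 2 Lgr5+T8- (0.87, 0.0198) or batch 2 Lgr5-T8- library (0.84, 0.0270).

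Both batches gave the same direction for the called Tspan8 differences. In log2 CPM with a prior count of 2, Csn3 in T8hi exceeded T8- by 2.67 in Lgr5+ and 2.24 in Lgr5- cells of batch 2, and by 1.99 in Lgr5+ and 2.35 in Lgr5- cells of batch 1. In Lgr5+ cells Wfdc18 differed by 2.34 in batch 2 and 1.70 in batch 1, and in Lgr5- cells by 2.83 in batch 2 and 3.26 in batch 1. The 4 differences of Btn1a1 lay between 1.47 and 2.29 and those of Lalba between 1.24 and 2.71, with Lalba differing more in Lgr5- cells in both batches. The Lgr5 difference within T8- cells was uneven for Wfdc18, at 0.01 in batch 2 and 1.02 in batch 1. For Glycam1 the T8hi to T8- difference was 3.37 in Lgr5+ and -2.08 in Lgr5- cells of batch 2, but 0.21 in Lgr5+ and 0.11 in Lgr5- cells of batch 1.

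**Figure D4:**
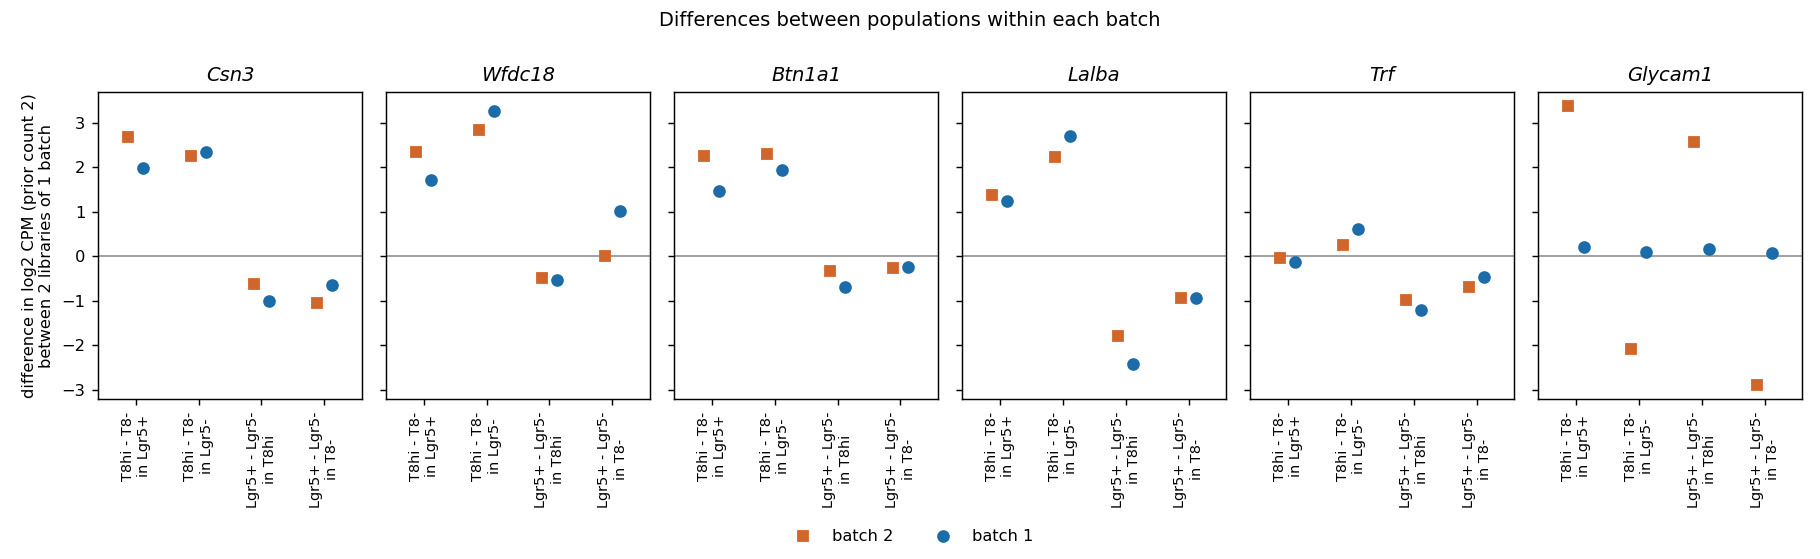
Differences in log2 CPM (prior count 2) between 2 libraries of the same batch, for the 6 tested milk genes; each panel has 4 contrasts on the x axis, with squares for batch 2 and circles for batch 1. The T8hi to T8- differences of Csn3, Wfdc18, Btn1a1 and Lalba lie between 1.24 and 3.26 in both batches, whereas those of Glycam1 are near 0 in batch 1 and 3.37 and -2.08 in batch 2.

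The batches themselves differed for many genes (16.0% of those tested higher and 16.9% lower in batch 2), but among the milk genes only Csn3 was called, lower in batch 2 by 0.50 ± 0.10 on the log2 scale (edgeR adjusted p = 0.00274). It was lower in batch 2 in all 4 populations. Glycam1 was also lower in batch 2 in all 4, by 0.20 to 3.37, with an estimate of -1.44 ± 0.72 that did not pass (edgeR adjusted p = 0.231).

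The 4 genes higher in T8hi cells also resembled each other across libraries. Over the 8 libraries, Pearson's r of log2 CPM was 0.98 between Csn3 and Btn1a1, 0.92 between Wfdc18 and Btn1a1, 0.89 between Csn3 and Lalba and 0.77 between Lalba and Wfdc18. Trf had r of 0.79 with Lalba and 0.26 with Wfdc18, and Glycam1 had r between -0.07 and 0.33 with the other 5. These r are descriptions, since the 8 points share their populations and batches. Among 11166 genes averaging 5 CPM or more, those most like Csn3 were Aldh1a3, which makes retinoic acid (r = 0.99), the receptor kinase Kit (0.97) and the matrix protein Thbs4 (0.97). Aldh1a3 and Kit are also luminal progenitor markers. Those most like Trf were the potassium channel Kcna6 (0.97), Adam11 (0.96) and the collagen Col9a2 (0.94), and those most like Glycam1 were Pdzd7 (0.94), the kinase Irak4 (0.93) and the lipid transporter Abca1 (0.93).

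Of the prolactin pathway, the factor Elf5 was higher in T8hi cells. Of 21 genes of prolactin signalling and its transcription factors, 1 was higher and 0 were lower in T8hi cells, against 9.13% and 5.52% of all genes tested, with a median log2 fold change of 0.04, beside -0.02 over all genes. Elf5 was at 2.91 to 7.70 CPM in T8hi libraries and 0.718 to 1.65 CPM in T8- libraries (log2 fold change 2.30 ± 0.18, edgeR adjusted p = 8.56e-06). The prolactin receptor Prlr had 37.8 to 76.9 CPM in T8hi and 11.7 to 32.4 CPM in T8- libraries, a difference that missed the threshold (1.20 ± 0.30, edgeR adjusted p = 0.0720). Stat5a (-0.20 ± 0.07, 0.0803) and Jak2 (0.18 ± 0.06, 0.0668) did not pass. In the Lgr5 comparison, 1 of the 21 was higher and 2 lower in Lgr5+ cells, against 4.23% and 4.86% of all genes (median 0.05, beside 0.01 over all genes), and Elf5 was 1 of those lower (-0.76 ± 0.19, adjusted p = 0.0250).

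Of 24 tested genes of milk fat synthesis and secretion, 5 were higher and 2 lower in T8hi cells, against 9.13% and 5.52% of all genes, with a median of 0.06. The fat globule mucins Muc15 and Muc1 were higher by 1.12 ± 0.08 and 0.89 ± 0.08 on the log2 scale (edgeR adjusted p = 3.88e-06 and 1.54e-05). Lpl, the lipase that frees fatty acids from blood lipoproteins, was higher by 1.43 ± 0.10 (3.74e-06), as was the fatty acid carrier Cd36 by 1.31 ± 0.19 (0.00650). Both differences were larger in Lgr5+ than in Lgr5- cells by estimate, and the interaction passed for Lpl (1.04 ± 0.20, edgeR adjusted p = 0.0202) but not for Cd36 (1.74 ± 0.37, 0.0968). For Lpl, T8hi exceeded T8- by 1.95 in Lgr5+ and by 0.91 in Lgr5- cells. For Cd36 the difference was 2.18 in Lgr5+ cells (edgeR adjusted p = 0.00541) and 0.44 in Lgr5- cells, where it did not pass (0.450). The globule protein Mfge8, which is abundant in milk, was lower in T8hi cells, by 0.23 (adjusted p = 0.0349), and the partners of butyrophilin in droplet release, Xdh (0.10, 0.449) and Plin2 (0.14, 0.271), did not pass. In the Lgr5 comparison, 2 of the 24 were higher and 5 lower in Lgr5+ cells, against 4.23% and 4.86% of all genes (median -0.08), and those higher were Muc15 (0.75 ± 0.08, 0.000108) and Muc1 (0.62 ± 0.08, 0.000330), opposite in sign to Csn3, Lalba and Trf.

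Of 18 genes of lactose synthesis and transport, 5 were higher and 2 lower in T8hi cells, against 9.13% and 5.52% of all genes, with a median of 0.18. Those lower were Slc7a5, an amino acid transporter, by 0.63 ± 0.09 (edgeR adjusted p = 0.000500), and the secretory pathway calcium pump Atp2c2, by 0.58 ± 0.09 (0.000792). The nucleoside transporter Slc28a3 was higher by 2.70 ± 0.22 (1.30e-05) and the hexokinase Hk2 by 0.35 ± 0.07 (0.00334), while B4galt1, the partner of alpha-lactalbumin, did not pass (0.19, 0.121). Within the Lgr5 classes, Hk2 passed in Lgr5- cells (0.52, edgeR adjusted p = 0.00460) and not in Lgr5+ cells (0.19, 0.287), while its interaction did not pass (-0.33, 0.317). In the Lgr5 comparison, 1 of the 18 was called, against 4.86% of all genes called lower, and it was Slc7a5, lower in Lgr5+ cells by 0.67 ± 0.09 (0.000526).

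Of 12 tested genes of other milk and defence proteins, 8 were higher and 0 lower in T8hi cells, against 9.13% and 5.52% of all genes, with a median of 0.80. The protease inhibitor Slpi was higher by 0.78 ± 0.07 (edgeR adjusted p = 2.03e-05), the copper carrier ceruloplasmin, Cp, by 0.60 ± 0.08 (0.000461), Wfdc2 by 0.65 ± 0.11 (0.00230) and the hormone gene Pthlh by 0.70 ± 0.12 (0.00469). The iron-binding milk protein lactoferrin, Ltf, was higher by 1.49 (0.0169). The Slpi difference depended on the Lgr5 class: it was 0.17 ± 0.10 in Lgr5+ cells, which did not pass (edgeR adjusted p = 0.359), and 1.38 ± 0.10 in Lgr5- cells (9.85e-06), with an interaction of -1.21 ± 0.14 (0.00164). Pthlh passed in Lgr5- cells (0.91, edgeR adjusted p = 0.0141) and not in Lgr5+ cells (0.49, 0.125), while its interaction did not pass (-0.42, 0.608). Ltf passed in Lgr5+ cells (1.99, edgeR adjusted p = 0.0294) and not in Lgr5- cells (0.99, 0.219), and its interaction did not pass either (1.00, 0.570). In the Lgr5 comparison, 3 of the 12 were higher and 1 lower in Lgr5+ cells, against 4.23% and 4.86% of all genes, with Slpi higher by 1.35 ± 0.07 (1.12e-06). Of 18 Wfdc genes 5 were tested, and 4 of them were higher in T8hi cells, against 9.13% of all genes, namely Wfdc18, Wfdc1 (1.70, 0.000202), Wfdc3 (1.63, 0.00132) and Wfdc2. Of 9 Btn and Btnl genes 2 were tested, and Btn1a1 was called whereas Btnl9 was not (0.54, 0.248).

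In the Tspan8 comparison, where 9.13% of all genes were called higher and 5.52% lower, markers of luminal cells were also higher in T8hi cells. Of 7 luminal progenitor markers, 6 were higher in T8hi cells (median 1.63) and 3 lower in Lgr5+ cells (against 4.86% of all genes called lower), and their summed level was 118 to 141 CPM in T8hi libraries and 64.6 to 90.2 CPM in T8- libraries. Itga2, the most abundant of these 7, averaged 21.4 CPM in T8hi and 30.3 CPM in T8- libraries. Elf5 is on this list as well as on that of the prolactin pathway. Of 10 pan-luminal markers 7 were higher in T8hi cells, with sums of 1833 to 3033 CPM in T8hi and 1351 to 2715 CPM in T8- libraries, and 5 were higher and 0 lower in Lgr5+ cells (median 0.36), against 4.23% of all genes higher, where 3 of the 6 tested milk genes were lower and 0 higher. Of 8 hormone-sensing luminal markers 5 were higher in T8hi cells (sums of 110.4 to 178 CPM in T8hi and 70.8 to 91.1 CPM in T8- libraries), and 7 of 12 basal markers were lower in T8hi cells. Within Lgr5- cells, 8 of the 10 pan-luminal and 6 of the 7 luminal progenitor markers were higher in T8hi cells, but 1 of the 8 hormone-sensing markers was, against 3.70% of all genes and beside 5 of the 6 tested milk genes. None of these luminal markers was at 0 in any library, and their part in the milk gene differences was not tested.

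Markers of cells outside the epithelium were also higher in T8hi cells on average, but for endothelial and immune markers the calls lay in Lgr5+ cells. Of 11 endothelial markers 7 were higher in T8hi cells (sums of 218 to 693 CPM in T8hi and 157 to 271 CPM in T8- libraries), as were 6 of 8 fibroblast markers (724 to 1237 CPM in T8hi and 350.0 to 742 CPM in T8- libraries), 4 of 9 tested immune markers and 3 of 7 glial markers, against 9.13% of all genes. The most abundant fibroblast marker, Dcn, averaged 205 CPM in T8hi and 221 CPM in T8- libraries. The most abundant glial marker, Sox10, averaged 128 CPM in T8hi and 130 CPM in T8- libraries. Of 6 tested adipocyte markers 2 were higher and 1 lower, against 9.13% and 5.52% of all genes. Adipoq, Cidec and Cfd were each at 0 in at least 1 T8- library. Within Lgr5+ cells, 10 of the 11 endothelial and 7 of the 9 immune markers were higher in T8hi cells (medians 2.09 and 2.39), against 7.27% of all genes and beside 3 of the 6 tested milk genes. Within Lgr5- cells, 611 of the 16526 genes tested (3.70%) were higher in T8hi cells and 556 were lower. There edgeR called 0 endothelial and 0 immune markers (medians 0.13 and 0.02, with 0 and 1 at an unadjusted p under 0.05), as did DESeq2 and limma-voom, beside 5 of the 6 tested milk genes. The interaction passed for 3 of the 11 endothelial and 4 of the 9 immune markers, against 2.55% of all genes. Also within Lgr5- cells, against those same shares of all genes, 5 of the 8 fibroblast markers were higher and 1 lower, and 3 of the 7 glial markers were higher. The endothelial sum in Lgr5-T8hi cells, where Csn3, Lalba, Wfdc18 and Btn1a1 were highest, was 218 and 394 CPM, against 265 and 271 CPM in Lgr5-T8- cells of batches 1 and 2.

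For Glycam1 the markers of high endothelial venules are given by library. Their sum was 475 and 316 CPM in Lgr5+T8hi, 111 and 216 CPM in Lgr5-T8hi, 103 and 61.8 CPM in Lgr5+T8-, and 82.7 and 75.7 CPM in Lgr5-T8- libraries of batches 1 and 2. The selectin genes Selp and Sele made up most of it, with 404 and 70.8 CPM of the 475 CPM in the batch 1 Lgr5+T8hi library. Fut7 ran the other way, with its lowest value of 0.375 CPM in that library and its highest, 1.29 CPM, in the batch 2 Lgr5-T8- library, and Madcam1 was highest in the batch 1 Lgr5-T8- library, at 0.455 CPM. The defining markers Chst4 and Madcam1 were each at 0 in 1 Lgr5+T8- library, Chst4 in that of batch 2 and Madcam1 in that of batch 1. Of the 2 libraries low in Glycam1, the batch 2 Lgr5-T8hi library had a larger sum than its batch 1 counterpart, and the batch 2 Lgr5+T8- library had the smallest sum of the 8. The part of any of these cells in the milk gene differences was not tested.

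**Figure D5:**
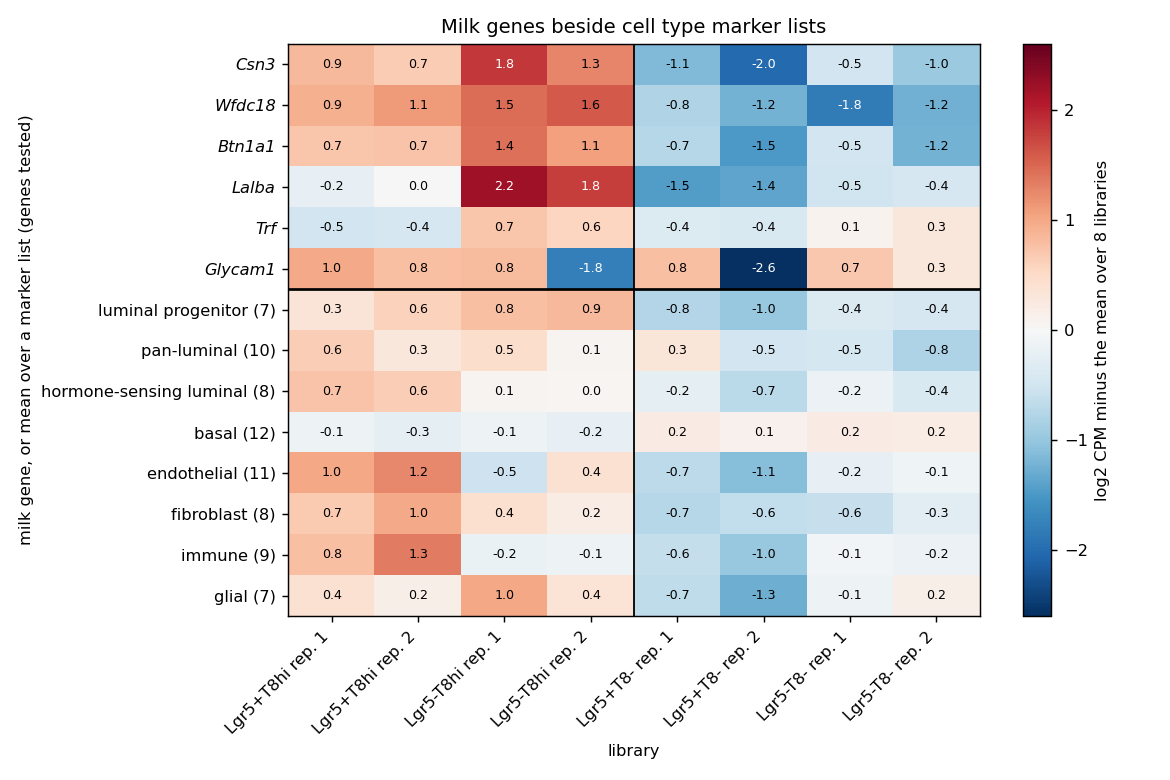
Log2 CPM minus the mean over the 8 libraries, by library (x axis), for the 6 tested milk genes (rows above the line) and as the mean over the tested genes of 8 marker lists (rows below it, number of genes in brackets); red is above and blue below the mean. Csn3, Wfdc18 and Btn1a1 are above their mean in all 4 T8hi libraries, the luminal progenitor, hormone-sensing and fibroblast markers share that split as means over each list, and Glycam1 is lowest in 2 batch 2 libraries.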

How the data were processed

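RNA sequencing measured 8 libraries of sorted basal cells, 2 from each of 4 populations. What the authors deposited are raw counts per gene, with gene lengths and without normalization, per the file headers. Tools listed in the submitters' processing notes are CASAVA (1.8.2), featureCounts, edgeR (3.10.2) and limma (3.24.14), with mm10 (GRCm38) as the genome. The aligner was not given. RefSeq supplied symbols for 25260 of 27164 Entrez identifiers.

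Counts were tested in edgeR 4.0.16 under R 4.3.3 with the quasi-likelihood F-test (two-sided, robust). The model held population and batch over 8 libraries, which left 3 residual degrees of freedom, with TMM factors and a filterByExpr minimum of 10 counts. P-values of each of 8 comparisons were Benjamini-Hochberg adjusted over the 16526 genes tested, at a threshold of 0.05. The same steps were tested on simulated data. The labels give the batch, and libraries that share it deviated together, with r across genes of 0.41 to 0.55 in 6 pairs of populations. Replicates were no repeated deposits of 1 library, with a chi-square per degree of freedom of 36.0 to 57.3. TMM factors ran from 1.02 to 1.07 in batch 2 and from 0.935 to 0.959 in batch 1.

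The milk genes and the gene lists were chosen with earlier results of these data known, and none is independent evidence. All 10 milk genes and both sort genes were named, with up to 4 genes of each pathway list by smallest adjusted p of the Tspan8 comparison. Also named were the 3 genes most like each of the 3 milk genes with the highest mean CPM, not scaled by length. Of the most abundant markers of each list, only some were named. Xdh, Plin2, Mfge8, B4galt1, Ltf, Csn1s2b and the other Wfdc and Btn genes were named by role after their values were seen. Alternatives were a fit without the batch, RLE factors, no count filter, a filter of 1 CPM in 4 libraries, DESeq2 (1.42.0), limma-voom (limma 3.58.1), total counts as library sizes for the CPM values only, and 7 libraries at a time.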

Additional observations from a re-analysis of the deposited data

Results flagged for a closer look

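In groups of 4 libraries that share a sort marker, the highest and lowest value of each milk gene was compared with its neighbour by Dixon's test. Over 30 such groups 3 values stood apart. The usual chance rate of about 1 in 20 assumes independent groups, each drawn from 1 population. These groups mix populations and batches and share libraries, so that rate does not apply to them.

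Csn1s1 had 0.825 CPM in the batch 2 Lgr5-T8hi library, far above the next of the 4 T8hi libraries at 0.192 CPM. It rests on 31 of the 62 counts of this gene. Glycam1 had 4.53 CPM in that same library, far below the next T8hi library at 27.0 CPM, and 2.55 CPM in the batch 2 Lgr5+T8- library, far below the next Lgr5+ library at 27.0 CPM. These low Glycam1 values rest on 170 and 64 counts.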

How the results depend on the processing

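For the Tspan8 comparison, the calls of Csn3, Wfdc18, Btn1a1 and Lalba held under all 14 alternatives with a test (13 for Lalba), and Lalba could not be tested with a filter of 1 CPM in 4 libraries. Without the replicate block, 0 milk genes were called for Lgr5 within T8hi cells and 0 within T8- cells, against 3 and 2 with the batch paired. In edgeR, 4 and 3 of them then had an unadjusted p under 0.05, and 0.00% and 1.26% of all genes were called. The batch difference has no value without the block. Without a count filter, 2 milk genes differed between batches, against 1, beside 24.9% of all genes, against 32.9%. The gene added was Csn1s1, higher in batch 2 by 1.67 ± 0.57 on the log2 scale (edgeR adjusted p = 0.0346). It had 62 counts in all, 31 of them in the batch 2 Lgr5-T8hi library. For the interaction, DESeq2 called 2 milk genes and limma-voom 1, against 0, beside 2.82% and 2.65% of all genes, against 2.55%. With 7 libraries, the number of milk genes called changed in every comparison except that of Lgr5 averaged over Tspan8 status. The share of all genes called also differed among these fits, so a lost or gained call need not be particular to the milk genes. The highest number of batch calls came without either Lgr5+T8hi library or without the batch 1 Lgr5+T8- library. Values that changed sign were all uncalled. The Csn3 interaction was -0.039 without the block, -0.014 without a filter and -0.021 in limma-voom. With 7 libraries it ran from -0.20 to 0.32 and that of Btn1a1 from -0.56 to 0.068. The Tspan8 value of Glycam1 ran from -0.22 to 1.18, the Lgr5 values of Glycam1 from -0.77 to 0.63 and of Wfdc18 from -0.18 to 0.18, and that of Btn1a1 within T8- cells from -0.57 to 0.0052. The batch difference of Lalba ran from -0.21 to 0.19 and of Trf from -0.044 to 0.10. The cause was not tested. Leaving out a library left 1 population with a single library, assumed to vary like the others. Depth limits Csn1s1, Csn2, Csn1s2a and Wap, and Lalba at 6 to 128 counts per library.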
